A study of Mus musculus with 4 samples.

Results

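The CC chemokines described here are Ccl2, Ccl3, Ccl4, Ccl5, Ccl6, Ccl7, Ccl9, Ccl12, Ccl17 and Ccl22. They were taken by gene name from a table of 51826 gene models, and each of the 10 names matched 1 model. The table covers 4 RNA-seq libraries of primary microglia from newborn C57BL/6 mice, in 2 groups of 2. The mock libraries came from untreated cells and the LysoPS libraries from cells given lysophosphatidylserine (LysoPS), a lysophospholipid ligand of the receptor GPR34, for 4 h. The cells of both groups had been shaken off mixed brain cultures that were 2 weeks old, so what they share includes growth beside other glia, and no genetic change or Cre driver is named for either. The dose is not given in the labels, and neither is whether replicates were separate cultures, so the p-values measure the spread between these libraries, which may be technical. Library totals lay between 30001098 and 45193959 counts.

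Chemokines are small secreted proteins that direct the migration of leukocytes, and the CC family is named for a pair of adjacent cysteines near the start of the mature protein. They act through G protein-coupled receptors on the target cell, and many ligands share a receptor. In the brain, microglia and astrocytes are known sources of CC chemokines, and the transcripts of some CC chemokines are classic early targets of NF-kappaB in macrophages. The members are described below in 4 groups: the CCR2 ligands Ccl2, Ccl7 and Ccl12, the macrophage inflammatory proteins Ccl3 and Ccl4 with Ccl5, the CCR1 ligands Ccl6 and Ccl9, and the CCR4 ligands Ccl17 and Ccl22.

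The transcripts of each of these groups stood higher after LysoPS, but by very different factors. Of the 10 members, 9 had enough counts to be tested and 9 rose, from 2.03-fold for Ccl6 to 52.5-fold for Ccl7 among those with mock counts. Ccl17 was not tested. Ccl22 passed the filter on low counts only through its LysoPS libraries, while 8 members also passed it in mock. Across the 19057 genes tested by edgeR's quasi-likelihood test at a Benjamini-Hochberg adjusted p under 0.05, 12.8% were higher and 25.5% changed in either direction. Both LysoPS libraries lay above both mock libraries for each of the 10 members, among them the 8 that passed the filter in mock. Ccl17 and Ccl22 had no mock counts. Over the tested genes, which leave out Ccl17, 32.5% had this arrangement. The median log2 fold change of the 9 tested members was 4.45 (4.21 with Ccl22 set at its lower bound), against -0.01 over all genes tested. The plot of CPM by library shows the separation. These are bulk cultures, in which a change in the number of cells of a type and a change in RNA per cell cannot be told apart.

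**Figure D1:**
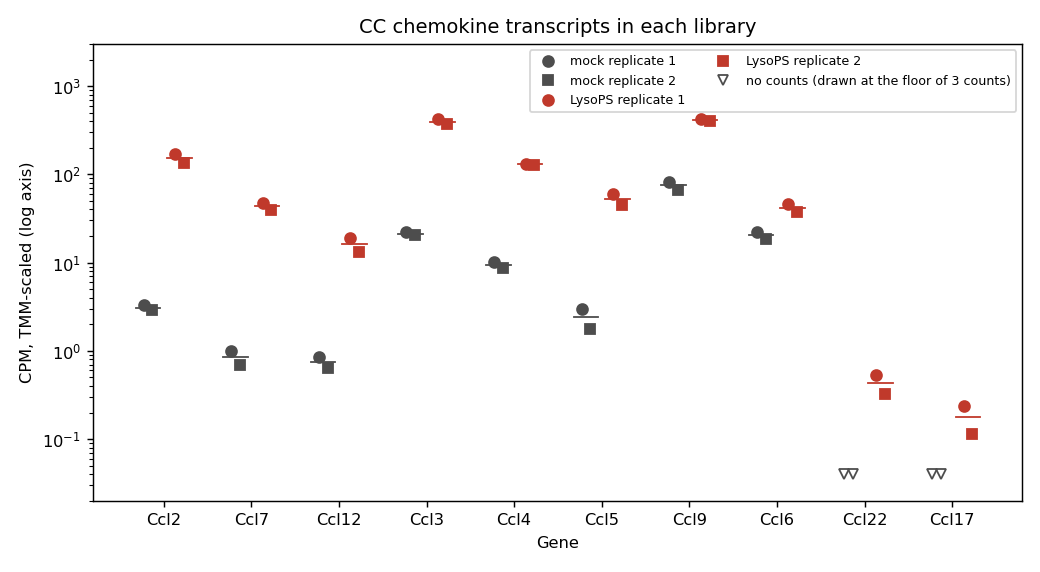
CPM (read counts relative to TMM-scaled library size, log axis) of each CC chemokine in the 4 libraries; circles are replicate 1, squares replicate 2, short lines the group means, and open triangles libraries without counts, drawn at the floor of 3 counts over the mock group. The LysoPS points lie above the mock points for every gene, with the smallest gap for Ccl6 (41.7 against 20.6 CPM) and wide gaps for Ccl2 (152 against 3.08) and Ccl7 (43.9 against 0.85).

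Of the members, 8 lie on chromosome 11 and 2 on chromosome 8 in GRCm38. Ccl2 (ENSMUSG00000035385, chr11:82035571-82037453), Ccl7 (ENSMUSG00000035373, chr11:82045712-82047525) and Ccl12 (ENSMUSG00000035352, chr11:82101845-82103400) follow each other on the plus strand within 67.8 kb. Ccl5 (ENSMUSG00000035042, chr11:83525778-83530518), Ccl9 (ENSMUSG00000019122, chr11:83572919-83578636), Ccl6 (ENSMUSG00000018927, chr11:83587882-83593087) and Ccl3 (ENSMUSG00000000982, chr11:83647844-83649355) on the minus strand and Ccl4 (ENSMUSG00000018930, chr11:83662584-83664683) on the plus strand form a second group of 139 kb, 1422 kb further along. Ccl22 (ENSMUSG00000031779, chr8:94745590-94751699) and Ccl17 (ENSMUSG00000031780, chr8:94810453-94812036) are 58.8 kb apart on the plus strand of chromosome 8. All 10 models have the coordinates of GENCODE M21, which gives 3 exons to 8 of them and 4 exons to Ccl6 and Ccl9. The annotated transcripts run from 514 bases for Ccl17 to 3006 for Ccl9, so counts alone do not rank the members.

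Promoter sequence for 6 members (Ccl3, Ccl6, Ccl9, Ccl12, Ccl17, Ccl22) was found in RefSeq (GRCm38.p6). The 250 bases before the RefSeq start are shown for the 4 of these members that lie on chromosome 11. These rose by 21.8-fold for Ccl12, 18.6-fold for Ccl3, 5.52-fold for Ccl9 and 2.03-fold for Ccl6. For Ccl3 the RefSeq start lies upstream of the gene model given above. For Ccl22 it lies inside the gene model, so that window covers some bases of the model. Capitals mark matches to the NF-kappaB consensus or to the AP-1 motif TGANTCA on either strand, or to the TATA motif TATAAA on the strand of the gene. The windows are chr11:82101595-82101844 (plus strand) for Ccl12, chr11:83649379-83649628 (minus) for Ccl3, chr11:83578637-83578886 (minus) for Ccl9 and chr11:83593088-83593337 (minus) for Ccl6, each written 5′ to 3′ along the gene.
Ccl12: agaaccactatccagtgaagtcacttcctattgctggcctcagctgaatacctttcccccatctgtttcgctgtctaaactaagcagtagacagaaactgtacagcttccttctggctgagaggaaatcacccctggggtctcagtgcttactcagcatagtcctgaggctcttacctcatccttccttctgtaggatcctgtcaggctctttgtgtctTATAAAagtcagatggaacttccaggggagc
Ccl3: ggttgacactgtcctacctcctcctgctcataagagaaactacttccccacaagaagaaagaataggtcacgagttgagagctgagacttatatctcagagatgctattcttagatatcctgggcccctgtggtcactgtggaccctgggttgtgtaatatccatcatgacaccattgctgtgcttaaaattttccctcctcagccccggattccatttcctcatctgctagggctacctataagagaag
Ccl9: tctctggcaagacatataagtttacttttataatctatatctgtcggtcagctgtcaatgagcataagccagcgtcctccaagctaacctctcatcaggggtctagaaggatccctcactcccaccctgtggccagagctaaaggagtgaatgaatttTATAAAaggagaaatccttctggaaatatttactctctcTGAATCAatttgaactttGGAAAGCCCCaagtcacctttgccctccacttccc
Ccl6: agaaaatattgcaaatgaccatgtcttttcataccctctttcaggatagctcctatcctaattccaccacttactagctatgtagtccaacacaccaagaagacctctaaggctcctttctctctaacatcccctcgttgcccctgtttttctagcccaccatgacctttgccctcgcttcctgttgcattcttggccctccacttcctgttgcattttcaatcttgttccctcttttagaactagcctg
Ccl9 alone of the 6 held a match to the NF-kappaB consensus, at bases -35 to -26 on the strand opposite to the gene, and a match to TGANTCA at -53 to -47, a motif whose letters match on either strand. TATAAA stood at -31 to -26 in Ccl12 and at -92 to -87 in Ccl9, and none of these matches overlapped another. Over all 32851 promoter windows of the table, 7.25% held the NF-kappaB consensus, 6.75% TGANTCA and 7.59% TATAAA in these 250 bases. Ccl3 and Ccl6 had no match in their windows. A match describes letters only and does not show that a factor binds.

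The ligands of CCR2, the receptor that brings monocytes out of the blood, included the largest rises among the members with mock counts. Ccl2, the main monocyte attractant, measured 3.28 and 2.89 CPM in the mock libraries and 170 and 134 CPM in the LysoPS libraries, replicate 1 first here and below. The groups were far apart, and the spread within LysoPS was the larger (152 ± 26.0 CPM, SD, n = 2). Its log2 fold change was 5.63 with a standard error of 0.17 (edgeR adjusted p = 0.000335). Ccl7, which also attracts monocytes, had 1.01 and 0.69 CPM in mock and 47.9 and 39.9 CPM after LysoPS, and rose by 5.71 on the log2 scale (SE 0.21, edgeR adjusted p = 0.000359). Ccl12, a mouse chemokine close to Ccl2, had 0.84 and 0.65 CPM in mock and 19.1 and 13.2 CPM after LysoPS, and rose by 4.45 (SE 0.27, edgeR adjusted p = 0.00095). In all 3 genes, as in every other member with mock counts, replicate 1 was the higher library of both groups by CPM. Mock counts of Ccl7 (31 and 30) and Ccl12 (26 and 28) were low, so their folds are less precise than that of Ccl3.

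Ccl3 and Ccl4, the macrophage inflammatory proteins, and Ccl5, an attractant of T cells and monocytes, draw leukocytes to inflamed tissue. Ccl3 was at 22.1 and 20.3 CPM in mock and at 421 and 367 CPM after LysoPS, a rise of 4.21 on the log2 scale (SE 0.11, edgeR adjusted p = 0.000283). Ccl4 went from 10.2 and 8.79 CPM to 132 and 127 CPM, with a log2 fold change of 3.77 (SE 0.11, edgeR adjusted p = 0.000335). Both were already well above the low counts of the CCR2 ligands in untreated cells. Ccl5 had 3.02 and 1.76 CPM in mock and 60.3 and 44.6 CPM after LysoPS. Its mock libraries differed by the largest factor among the members with mock counts, and its log2 fold change of 4.48 (SE 0.30, edgeR adjusted p = 0.00123) ranged from 4.12 to 4.90 when each library was left out in turn.

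Ccl6 and Ccl9, ligands of CCR1 that rodent macrophages make without stimulation, showed the smallest rises among the 8 members with mock counts. Ccl9 stood at 82.9 and 67.1 CPM in mock and at 426 and 402 CPM after LysoPS, a log2 fold change of 2.47 (SE 0.12, edgeR adjusted p = 0.000532). Ccl6 went from 22.5 and 18.7 CPM to 46.0 and 37.3 CPM, a log2 fold change of 1.02 (SE 0.15, edgeR adjusted p = 0.00926). Its groups did not overlap, but it was the only member with mock counts whose rise did not pass when edgeR tested for more than a 1.5-fold change (adjusted p = 0.0791). Scaled to the summed counts of 19 microglia and macrophage genes in place of all genes, the log2 fold change of Ccl6 was -0.26, and 0.20 when Lyz2 was left out of those genes. These scalings lower every gene by about the same amount, so a gene that rose less than the summed genes changes sign by construction, and the median of all genes moved to -1.29 and -0.83. Of the summed genes Lyz2 had the most counts and rose by 1.80, and Adgre1 rose by 3.57, whereas the median of the 19 genes was 0.46. Ccl9 was called under both scalings (1.19 and 1.65).

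Ccl17 and Ccl22, which attract T cells through CCR4 and are typical of dendritic cells, were close to the limit of detection. Neither had a count in either mock library. Ccl22 had 18 and 14 counts in LysoPS replicates 1 and 2 (0.54 and 0.32 CPM), which is at least 10.2-fold higher, taking 3 counts over the mock group as the floor. It passed the threshold (edgeR adjusted p = 0.0242), but not without mock replicate 1 (0.0597), mock replicate 2 (0.0747) or LysoPS replicate 1 (0.0642). Ccl17 had 8 and 5 counts (0.24 and 0.11 CPM), at least 4.16-fold over the same floor, and its adjusted p was 0.0912 when no gene was filtered out. Floors cover counting error only.

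**Figure D2:**
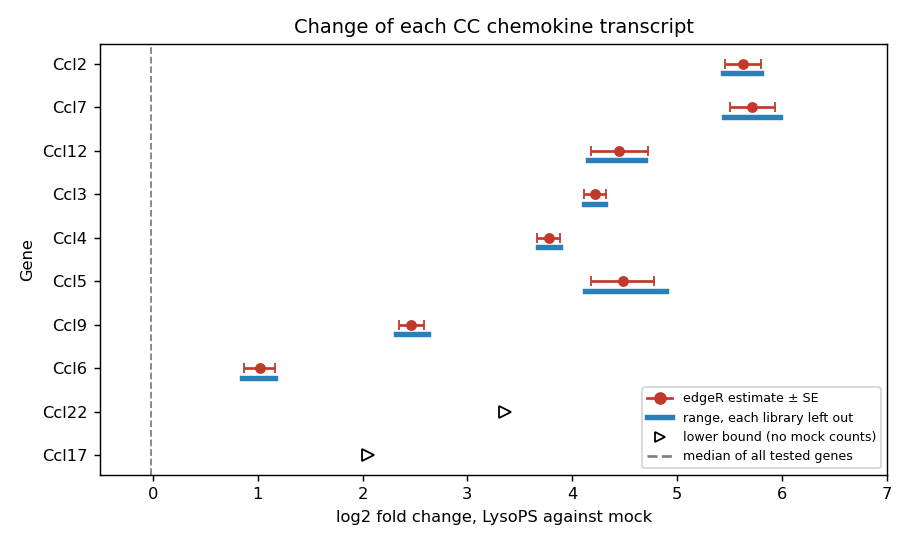
Log2 fold change (LysoPS against mock) of each CC chemokine: points with bars are the edgeR estimate ± SE, blue lines the range when each library is left out, open triangles lower bounds for genes without mock counts, and the dashed line the median of all tested genes (-0.01). Ccl2 (5.63) and Ccl7 (5.71) lie furthest right, Ccl9 (2.47) and Ccl6 (1.02) lowest among genes with mock counts.

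TPM is per length, so it allows the members to be ranked by level. In mock the order of mean TPM was Ccl3 (60.1 ± 2.47, SD, n = 2), Ccl9 (54.5 ± 6.16), Ccl6 (31.5 ± 3.18), Ccl4 (31.2 ± 2.67), Ccl5 (9.60 ± 3.42), Ccl2 (7.89 ± 0.42), Ccl12 (2.90 ± 0.52) and Ccl7 (2.26 ± 0.52). Neighbours in that order overlapped for Ccl3 and Ccl9, Ccl6 and Ccl4, Ccl5 and Ccl2, and Ccl12 and Ccl7. After LysoPS the order was Ccl3 (989 ± 60.9), Ccl4 (378 ± 2.48), Ccl2 (350 ± 48.4), Ccl9 (265 ± 0.98), Ccl5 (189 ± 33.8), Ccl7 (105 ± 9.93), Ccl12 (58.0 ± 12.9) and Ccl6 (56.3 ± 6.42), with overlap between Ccl4 and Ccl2 and between Ccl12 and Ccl6. Ccl17 and Ccl22 came last in both groups, with means of 0.62 and 0.36 TPM after LysoPS. By mean TPM among the 51826 gene models, Ccl3 stood at place 2963 in mock and 99 after LysoPS, and Ccl2 at 11465 and 356.

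The summed level of the 10 members was 214 and 186 TPM in mock and 2512 and 2270 TPM after LysoPS, 11.96 times higher in the mean. Its make-up differed between the groups. Ccl9 held 27.6% and 26.9% of the sum in mock and 10.6% and 11.6% after LysoPS. Ccl6 held 15.8% and 15.7% in mock and 2.42% and 2.28% after LysoPS. The share of Ccl3 was 28.9% and 31.3% in mock and 41.1% and 41.7% after LysoPS, and that of Ccl2 was 3.83% and 4.08% against 15.3% and 13.9%. Ccl4 kept a similar share throughout, at 15.5% and 15.7% in mock and 15.0% and 16.7% after LysoPS. Shares depend on the unit: from CPM, which favours long transcripts, Ccl9 held 56.2% in mock and 33.3% after LysoPS.

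**Figure D3:**
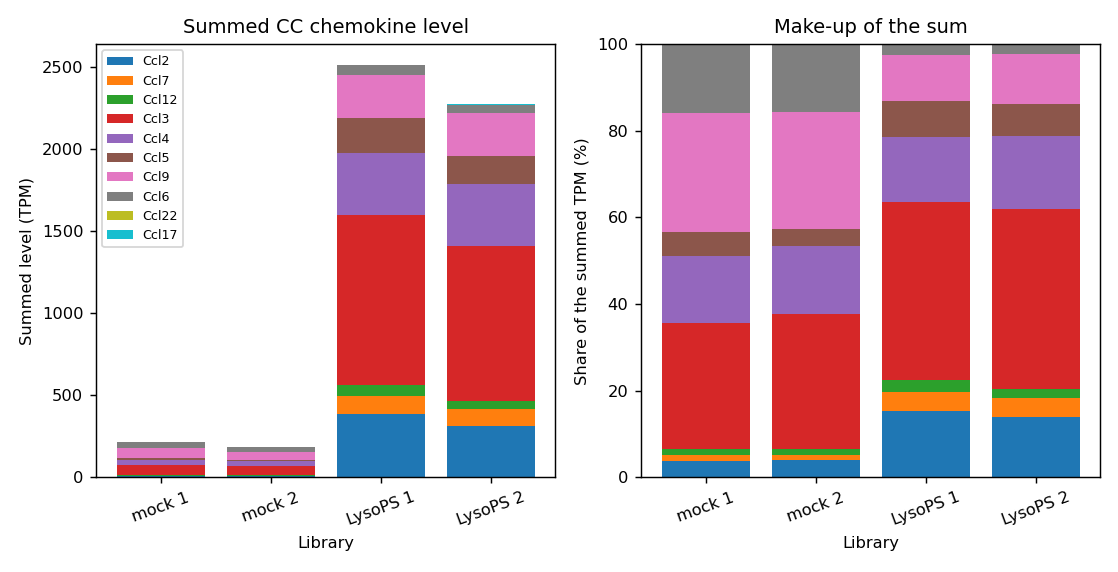
Left, summed TPM of the 10 CC chemokines in each library, coloured by gene; right, the percent of that sum from each gene. The sum is 214 and 186 TPM in mock and 2512 and 2270 TPM after LysoPS, and Ccl9 and Ccl6 take smaller parts of it after LysoPS while Ccl3 and Ccl2 take larger parts.

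Members of the same gene group did not all move by the same factor. The log2 ratio of Ccl6 to Ccl9 in TPM was -0.80 and -0.77 in mock and -2.12 and -2.35 after LysoPS, a difference of -1.45. That of Ccl12 to Ccl2 was -1.30 and -1.54 in mock and -2.51 and -2.69 after LysoPS, a difference of -1.18, so Ccl12 moved less than Ccl2, from which Ccl7 and Ccl11 separate it. The ratio of Ccl3 to Ccl4, whose genes are 13.2 kb apart on opposite strands, was 0.90 and 0.99 in mock and 1.45 and 1.32 after LysoPS, a difference of 0.44. In these 3 pairs the groups did not overlap, and the exact two-sided permutation p was 0.333, the smallest that 2 against 2 libraries can give (adjusted over 5 pairs, 0.417). Ccl7 and Ccl2, 8.26 kb apart, kept their ratio within the spread of the mock libraries (-1.60 and -1.95 in mock, -1.77 and -1.68 after LysoPS). Their difference of 0.05 (exact permutation p = 1.0) changed sign when taken from CPM (-0.022) or with a pseudocount of 1 in place of 0.1 (-0.26). The pair Ccl17 and Ccl22 had no mock counts, and its ratio there is set by the pseudocount alone.

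Within 100 kb of the members lay 38 other gene models, of which 19 were tested. Of these, 3 were higher, 2 lower and 14 did not pass, with a median log2 fold change of 0.11, and the share that rose can be read against the 12.8% of all tested genes. The called neighbour with counts in mock and the larger rise was Wfdc17, which encodes a small secreted whey acidic protein domain protein and lies beyond Ccl4. It went from 11.5 ± 0.80 to 73.1 ± 7.14 CPM (SD, n = 2), a log2 fold change of 2.66 (edgeR adjusted p = 0.000422). Gm45190, near Ccl2, had no counts in mock and 11 and 12 after LysoPS.

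**Figure D4:**
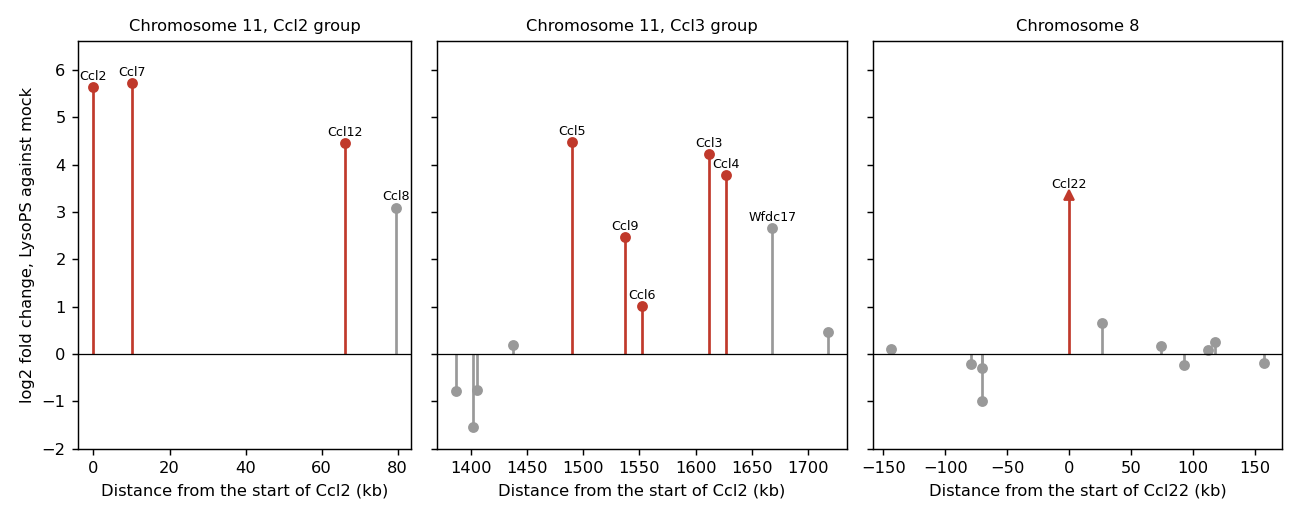
Log2 fold change (LysoPS against mock) of tested genes at their distance from the start of Ccl2 (left and middle, chromosome 11) or Ccl22 (right, chromosome 8), in kb; members in red, other genes in grey, the triangle a lower bound for Ccl22. Gm45190 (no mock counts), the untested Ccl17 and 1 gene that starts further away are left out; the members stand above their neighbours except that Wfdc17 (2.66) and Ccl8 (3.09, not called, with 9 mock counts in all and 2.29 without mock replicate 1) exceed Ccl9 (2.47) and Ccl6 (1.02).

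In the rest of the CC ligand family, Ccl8 and Ccl20 had more counts after LysoPS, both at a low level. Of 15 other ligand names, 13 were in the table, 4 were tested and none passed by edgeR (1 higher at an unadjusted p under 0.05, and 1 higher by DESeq2 1.42.0). That gene was Ccl8, a monocyte attractant next to Ccl12, with 0 and 9 counts in mock and 31 and 49 after LysoPS (adjusted p = 0.05003 by edgeR and 0.0152 by DESeq2). Ccl8 lay at the threshold: 6 of 12 alternatives called it, among them limma-voom (adjusted p = 0.0429) and edgeR without the filter on low counts (adjusted p = 0.0185). Its fitted log2 fold change of 3.09 was 2.29 without mock replicate 1 and 8.21 without mock replicate 2, where no mock count remained and the value is set by the prior count. Ccl20, which attracts cells through CCR6, was not tested and had no counts in mock and 12 and 10 after LysoPS. Ccl1, Ccl19 and Ccl26 had no counts in any library. Ccl8 stood at 1.02 ± 0.14 CPM after LysoPS (SD, n = 2).

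Transcripts of receptors for CC ligands were also in the table, and those of Ccr1, Ccr3, Ccr2 and Ccr4 are described. Ccr1, the receptor of Ccl6 and Ccl9, rose from 5.68 and 6.10 CPM to 9.62 and 8.602 CPM (log2 fold change 0.63, edgeR adjusted p = 0.0266), but was not called without mock replicate 1 (0.141), mock replicate 2 (0.111) or LysoPS replicate 1 (0.0691). Ccr3 rose by 1.21 (edgeR adjusted p = 0.0256) and was not called when any one library was left out (adjusted p from 0.0529 to 0.129). Scaled to microglia and macrophage counts, Ccr1 stood at -0.66 and Ccr3 at -0.068. Ccr2, the receptor of Ccl2, was barely present, with 6 counts in each mock library and 15 and 7 after LysoPS, and Ccr4 had 1 count over all libraries.

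All 14 genes of a list of NF-kappaB subunits, inhibitors and feedback genes were higher in the same libraries, against 12.8% of all tested genes, with a median log2 fold change of 1.88. Among them, Nfkbiz, a nuclear coregulator of secondary NF-kappaB targets, rose by 4.17, the feedback inhibitor Tnip3 by 4.51, the inhibitor Nfkbia by 3.23 and the kinase Ikbke by 2.37. The median of these regulators was below that of the chemokines. Both lists were chosen with earlier results of these data known, so these counts and medians are descriptive. Of 8 regulators of cytokine mRNA decay, 2 rose and 6 did not pass, with a median of 0.16. They were Zfp36, which binds AU-rich elements (1.95), and the RNase Zc3h12a (3.48), both of which limit the life of chemokine mRNA.

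The cultures held other cells beside microglia, and the balance of their transcripts differed between the groups. Microglia markers were present in mock, with Csf1r at 336 CPM, C1qa at 318 and Lyz2 at 2814, but the astrocyte marker Gfap stood at 5827 and the collagen Col1a1 of fibroblasts at 2958. Of 19 microglia and macrophage genes, 14 were higher and 2 lower, with a median log2 fold change of 0.46, and their summed level was 7006 to 7613 CPM in mock and 16690 to 18837 CPM after LysoPS. Of 12 astrocyte markers, 10 were lower and 2 did not pass, with a median of -0.77. Their sum was 10385 to 11515 CPM in mock and 5448 to 6180 CPM after LysoPS. Over all tested genes, 12.8% were higher and 12.6% lower. Fibroblast markers summed to between 10100 and 10171 CPM in mock and between 9059 and 9442 CPM after LysoPS. The lymphocyte markers Cd3e, Cd3d and Cd3g, the monocyte marker Ly6c2 and the neutrophil markers Ly6g and S100a9 had no counts in any library. Other genes of these lists did have counts. Of 11 neutrophil markers, 5 had no counts in any library, 3 were tested and 2 of these were higher, namely Csf3r (log2 fold change 0.67) and Camp, with no counts in mock and 39 and 27 after LysoPS. S100a8, with 0 and 6 counts in mock and 44 and 21 after LysoPS, did not pass by edgeR (adjusted p = 0.0621). By DESeq2, 3 neutrophil markers had an adjusted p, and all 3 were higher. The neutrophil markers summed to 26.6 to 27.8 CPM in mock and 41.7 to 47.9 CPM after LysoPS. Csf3r alone supplied most of each sum, with 27.8 and 26.4 CPM in mock and 45.4 and 40.5 CPM after LysoPS. Of 8 monocyte markers, 3 had no counts and 4 were tested, of which Hp was higher (2.76) and Fn1 lower (-0.59). The sum of the monocyte markers, most of it Fn1, was 5275 to 5427 CPM in mock and 3514 to 3805 CPM after LysoPS. Of 13 lymphocyte markers, 6 had no counts and 4 were tested, of which 1 was lower and Cd79b was higher (2.77), and their sum was 7.31 to 8.24 CPM in mock and 10.2 to 10.5 CPM after LysoPS. The part of these shifts in the chemokine rises was not tested. With libraries scaled to the microglia and macrophage genes, which moved the median of all genes to -1.29, the log2 fold changes were 4.34 for Ccl2, 4.43 for Ccl7, 3.15 for Ccl12, 2.93 for Ccl3, 2.50 for Ccl4 and 3.19 for Ccl5.

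**Figure D5:**
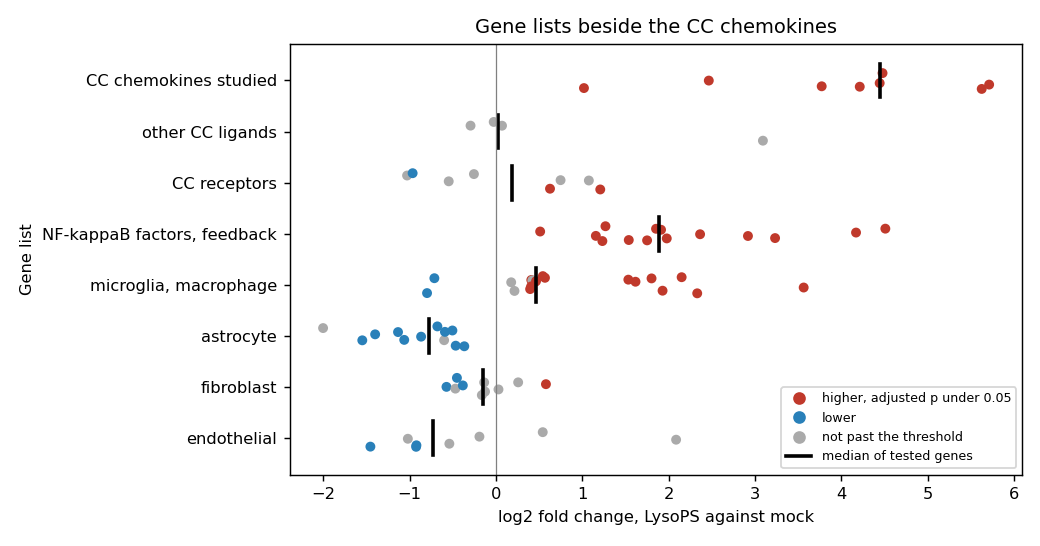
Log2 fold change (LysoPS against mock) of each tested gene with mock counts in 8 gene lists; red is higher and blue lower at an adjusted p under 0.05, grey did not pass, and black bars are list medians over all tested genes. The median of the CC chemokines (4.45, with Ccl22 included and not drawn) lies right of those of the NF-kappaB genes (1.88) and the microglia and macrophage genes (0.46). Single genes overlap: Ccl6 (1.02) and Ccl9 (2.47) lie left of Tnip3 (4.51) and Adgre1 (3.57). The astrocyte genes lie left of 0 (median -0.77).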

How the data were processed

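The series measured poly-A RNA of primary mouse microglia cultures by paired-end sequencing, in 2 mock and 2 LysoPS libraries. The treatment note in the labels speaks of 1 treated replicate, but the titles and treatment fields of 2 samples name LysoPS, and these fields set the groups. Per the submitters' processing notes, the authors used FastQC 0.11.2, Trimmomatic 0.36, HISAT2 and StringTie with build GRCm38; their parameters, the counting program and its strand setting are not given in the sources used here. The deposited table holds, per the file headers, a raw count, a TPM and an FPKM value for each gene model and library. The FPKM values deposited by the authors served only to derive the transcript length that they imply together with the counts, which varied by at most 1.06 times between libraries for any member. No model with counts above 6 overlapped a member.

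Counts were fitted with edgeR 4.0.16 in R 4.3.3 (filterByExpr with a minimum count of 10, TMM factors from 0.966 to 1.04, quasi-likelihood F test with 2 residual degrees of freedom, two-sided, Benjamini-Hochberg over 19057 genes). CPM values use TMM-scaled library sizes. Replicates differed by more than sampling noise (chi-square per degree of freedom 12.5 in mock and 18.9 in LysoPS). Deposited TPM values were used for levels, shares and ratios (pseudocount 0.1) and were tested only by exact permutation. DESeq2 1.42.0, limma-voom (limma 3.58.1) and other settings were alternatives.

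The members and gene lists were chosen with earlier results of these data known. All members are named; of the other lists, up to 6 called genes each, by smallest p, could be named if 1 group averaged 1 CPM or more, and of marker lists up to 3 genes by level and those without counts. Csf1r, C1qa, Csf3r, Camp, S100a8, Hp, Cd79b, Ccl1, Ccl8, Ccl19, Ccl20, Ccl26, Ccr2, Ccr4, Gm45190 and Wfdc17 were named outside this rule, with their values seen. Some genes of the lists are not reported here.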

Additional observations from a re-analysis of the deposited data

How the results depend on the processing

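Under 13 alternatives, Ccl2, Ccl3, Ccl4, Ccl5, Ccl7, Ccl9 and Ccl12 were higher and past the threshold in each. The number of members called higher stayed between 7 and 9; it was 8 without mock replicate 1, mock replicate 2 or LysoPS replicate 1, where Ccl22 was lost, and 7 when more than a 1.5-fold change was required, where Ccl22 (adjusted p = 0.0679) and Ccl6 were lost. Ccl22 was removed by a filter of 1 CPM, and DESeq2 gave no adjusted p for it or for Ccl17. The median log2 fold change of the members ranged from 4.15 to 4.69 with a library left out. Scaling to microglia and macrophage counts gave a median of 3.15 (Ccl6 -0.26, Ccr1 -0.66, Ccr3 -0.068), and the same without Lyz2, chosen after seeing the data, gave 3.61 (Ccr1 -0.20). Under these scalings the median of all genes was -1.29 and -0.83, and 2.33% and 4.37% of the called genes were higher, against 50.4% with TMM. The number of genes called over the whole table was 4854, and it was 2022 without mock replicate 1, 2026 without mock replicate 2, 1064 for more than a 1.5-fold change, and 16491 and 14221 under these scalings. The log2 ratio difference of Ccl7 to Ccl2 turned to -0.022 from CPM and -0.26 with a pseudocount of 1. That of Ccl17 to Ccl22 went from 0.62 to -0.94 from CPM, since without mock counts the pseudocount sets the mock ratio. Shares from CPM in place of TPM were 56.2% and 33.3% for Ccl9, 16.0% and 31.6% for Ccl3 and 2.32% and 12.2% for Ccl2, in mock and LysoPS; CPM is not per length. With the replicate number as a block, 9 members and 5433 genes were called. The block lowered the standard error of every member with mock counts, from 0.17 to 0.090 for Ccl2 and from 0.30 to 0.13 for Ccl5. That of Ccl22 rose from 1.23 to 1.31. The labels do not say that a number marks a shared culture or batch. Over all tested genes the deviations of same-numbered libraries correlated at 0.0775, so the numbers were not taken as pairs. The members with mock counts, however, were all higher by CPM in replicate 1 of both groups.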
